A study of Mus musculus with 11 samples.

Results

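Surface molecules with a CD (cluster of differentiation) number are the proteins by which leukocytes and many other cells are told apart with antibodies, and most mouse genes for them carry the number in their symbol. The 57 genes described here are those of the table comparing AOM/DSS with naive colon whose symbol is Cd followed by a number and at most a letter and a digit, with Cd74 and Cd163 left out. They were taken from 7868 genes listed, and 86 genes with such symbols are annotated in the mouse genome. The other 29, among them Cd55, Cd63, Cd81, Cd82, Cd93, Cd151 and Cd200, were not listed. A gene not listed was above the limit of the list or not tested, and is not called unchanged. The list holds only genes with a p below 0.05 in the authors' own comparison, so every member had already been selected on the contrast described here. No test of that contrast is given, and the comparisons below are descriptions of group means.

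Tissue was taken on day 70 from 11 female wild-type mice. In the AOM/DSS group, 7 mice received azoxymethane (AOM, a carcinogen) once at 10 mg/kg and, from day 7, 3 rounds of 1.5% DSS (dextran-sodium sulfate, an agent toxic to colon epithelium) given to drink for 5 days and followed by 16 days without it. The naive group comprised 4 mice kept untreated over the same time. The heading of the table sets tumor against full-thickness naive colon, whereas the study's list of supplements puts that word on the tumors. Which samples held the muscle coat is therefore uncertain, and tumor growth, chemical treatment and any difference in dissection cannot be told apart. Libraries were made from the 3′ ends of mRNA. All levels are the authors' least-squares means over the mice of a group on their normalized scale, and neither values per mouse nor depth were analysed here, so no SD, interval or overlap between mice can be given. A mean of 0.0001 stands for 0, and a gene with such a mean is said to be listed at 0.

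Many of these molecules work in pairs or complexes. T cells recognise antigen with a receptor whose signal runs through the CD3 chains, and B cells with surface immunoglobulin coupled to CD79A and CD79B. Co-receptors such as CD4 and CD8 set the threshold of that signal, and CD28, CD80 and CD86 provide costimulation. Myeloid cells carry receptors for bacterial products and dead cells, while tetraspanins and complement regulators are found on nearly all cells. The healthy colon holds all of these lineages beneath and within its epithelium. Since whole tissue was sequenced, more cells of a type and more RNA per cell cannot be told apart.

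Most CD-numbered genes had a higher mean in AOM/DSS tissue. Of the 56 members with a ratio, 47 were higher and 9 lower, and 43 stood at least 2-fold higher (76.8%), against 27.3% of all 7299 listed genes with a ratio. At least 2-fold lower were 5 members (8.93%), against 17.4% of all listed genes. The median log2 ratio of AOM/DSS over naive was 1.94 for the members and 0.38 for all listed genes, and the members' median was 1.56 once centred on the median of all listed genes. Low means give wide ratios in this list. Among listed genes whose higher mean was under 10, 48.5% were at least 2-fold higher and 31.9% at least 2-fold lower. Of the 25 such members with a ratio, 22 were at least 2-fold higher and 2 at least 2-fold lower, and of the 31 members reaching a mean of 10, 21 and 3 were (67.7% and 9.68%). Over all listed genes reaching that mean the shares were 18.6% higher and 11.5% lower, so the share of members that were lower lay near that of all genes. How the levels lie by lineage, and the single T cell gene without a naive value, can be seen in the plot of group means.

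**Figure D1:**
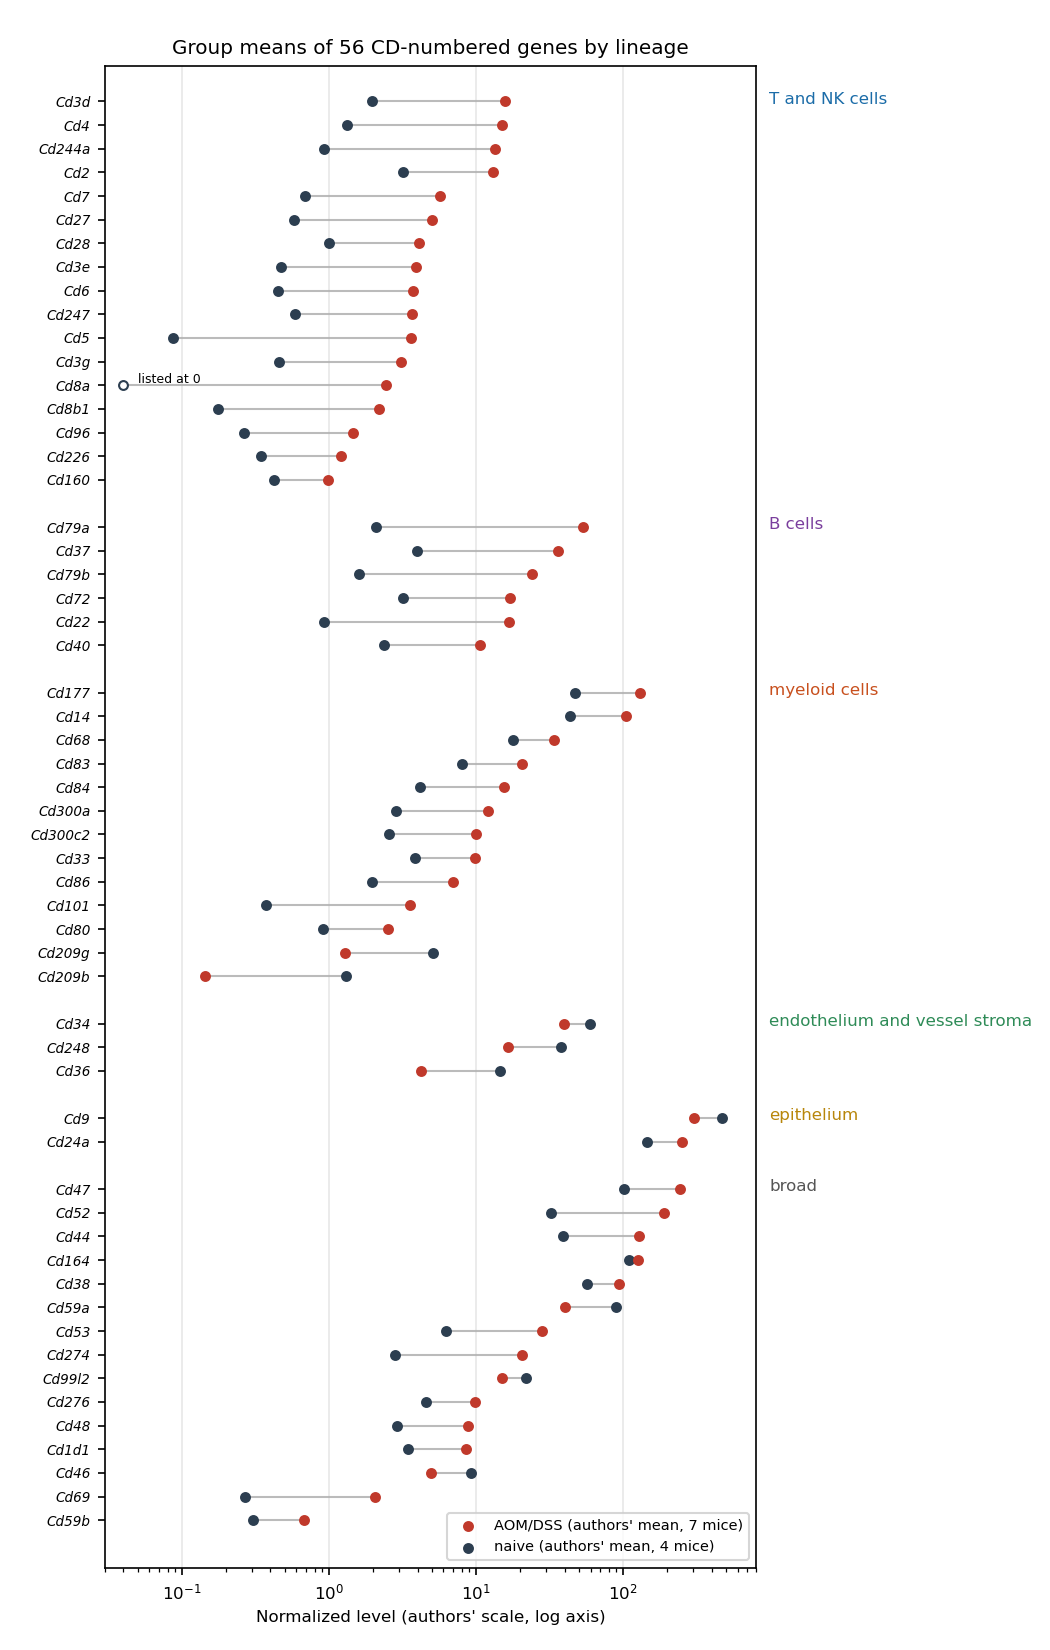
Each row is one of 56 genes, grouped by lineage, with the authors' mean in AOM/DSS (red, 7 mice) and naive tissue (dark, 4 mice) on a log axis of normalized level, and no error bars because values per mouse were not analysed. All T, NK and B cell genes shown lie to the right in AOM/DSS, Cd8a is listed at 0 in naive tissue (open circle at the left edge, not to scale), and the 3 vessel and stroma genes lie to the left.

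T and NK cell genes were higher throughout. All 17 listed members had higher means in AOM/DSS, and the 16 with a ratio were all at least 2-fold higher. Over all listed genes with a ratio that share was 27.3%, or 48.5% of those whose higher mean was under 10. The T and NK cell members had a median log2 ratio of 3.02 and a range from 1.20 to 5.38. Their naive means were low, under 1 in 13 of 17, and with 1 added to both means the median was 1.74. Only Cd163l1 of the 18 annotated genes placed in this lineage was not listed. Of the signalling chains of the T cell receptor, Cd3d stood at 15.7 in AOM/DSS and 1.97 in naive tissue, a ratio of 7.96. Cd3e stood at 3.91 in AOM/DSS and 0.474 in naive tissue, and Cd3g at 3.08 in AOM/DSS and 0.460 in naive tissue. Cd247, which encodes the zeta chain, had means of 3.64 in AOM/DSS and 0.588 in naive tissue. The ratios of Cd3d, Cd3e, Cd3g and Cd247 lay close together, at 7.96, 8.24, 6.70 and 6.19. Raising each mean by 1 set Cd3d apart, at a log2 ratio of 2.49. Cd3e, Cd3g and Cd247 then had 1.74, 1.48 and 1.55, so the closeness to Cd3d was not kept.

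Among the co-receptors, Cd4, which marks helper T cells and also some myeloid cells, reached 15.1 in AOM/DSS against 1.32 in naive tissue, an 11.4-fold difference. The CD8 beta chain gene Cd8b1 stood at 2.18 in AOM/DSS and 0.175 in naive tissue, 12.4-fold apart. Its partner chain gene Cd8a reached 2.45 in AOM/DSS, against a naive mean listed at 0, so no ratio is given. The log2 ratio of Cd4 was 0.12 below that of Cd8b1, so these helper and cytotoxic co-receptor genes stood higher in nearly the same proportion. With 1 added to both means the log2 ratios of Cd4 and Cd8b1 were 2.79 and 1.43, so this likeness was lost.

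The remaining T and NK cell genes encode adhesion, costimulatory and modulating receptors. Cd5, a receptor that dampens antigen signals in T cells and a B cell subset, had the widest ratio of all members, 41.6-fold, with means of 3.62 in AOM/DSS and 0.0871 in naive tissue. With 1 added to both means its log2 ratio was 2.09 in place of 5.38. Cd6, a receptor related to it, stood at 3.74 in AOM/DSS and 0.447 in naive tissue. Cd244a, a SLAM family receptor of NK cells and CD8 T cells, reached 13.5 in AOM/DSS against 0.922 in naive tissue, 14.7-fold. Cd2, an adhesion molecule that binds CD48, had 13.1 in AOM/DSS and 3.16 in naive tissue. The costimulatory receptor genes Cd27 and Cd28 were 8.72-fold and 4.06-fold higher, at 5.01 and 4.09 in AOM/DSS against 0.574 and 1.01 in naive tissue. Cd7, an early T and NK cell antigen, was 8.28-fold higher, with 5.67 in AOM/DSS and 0.685 in naive tissue. Cd96 and Cd226, which share a nectin-type ligand, were 5.54-fold and 3.52-fold higher, at means of 1.46 and 1.22 in AOM/DSS. Cd160, carried by NK cells and intraepithelial lymphocytes, was closest to even, with 0.977 in AOM/DSS and 0.425 in naive tissue. Adding 1 to both means took Cd96, Cd226 and Cd160 below a 2-fold difference, with log2 ratios of 0.96, 0.72 and 0.47.

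B cell genes showed the widest differences as a group. All 7 listed members were at least 2-fold higher in AOM/DSS, with log2 ratios from 2.17 to 4.68 and a median of 3.91, or 3.21 with 1 added to both means. Each of the 7 reached a mean of 10 in AOM/DSS, where only 4 of 17 T and NK cell genes did. Of all listed genes whose higher mean reached 10, 18.6% were at least 2-fold higher. Cd79a, which encodes the signalling alpha chain of the B cell receptor, stood at 53.7 in AOM/DSS and 2.09 in naive tissue, 25.7-fold. Its partner Cd79b had 23.9 in AOM/DSS and 1.59 in naive tissue, 15.0-fold, a log2 ratio 0.78 below that of Cd79a. Cd22, an inhibitory sialic acid-binding receptor of B cells, stood at 16.7 in AOM/DSS and 0.920 in naive tissue, 18.2-fold. Genes also found on other leukocytes had smaller ratios. The tetraspanin gene Cd37 was 9.09-fold higher (36.3 in AOM/DSS, 3.99 in naive tissue), Cd72, an inhibitory co-receptor, 5.34-fold (17.0 in AOM/DSS, 3.18 in naive tissue) and Cd40, which receives help from T cells, 4.49-fold (10.6 in AOM/DSS, 2.36 in naive tissue). Cd180, a Toll-like receptor relative, was the single annotated B cell gene that was not listed.

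Lineage genes with other symbols, written down as lists with earlier results of these data known, stood the same way for lymphocytes. Of 22 T and NK cell genes such as Trac and Lck, 19 were listed, all higher in AOM/DSS and 18 of them at least 2-fold, with a median log2 ratio of 3.24. Of 14 B cell genes, 12 were listed, all higher and 11 at least 2-fold, with a median of 3.75. Ms4a1, the gene of the B cell antigen CD20, had 9.51 in AOM/DSS and 0.744 in naive tissue, and Pax5, the B lineage transcription factor, 6.54 in AOM/DSS and 0.216 in naive tissue. All 9 plasma cell genes were listed and at least 2-fold higher, with a median of 3.10. Of all listed genes with a ratio, 27.3% were at least 2-fold higher, and of those whose higher mean was under 10, 48.5%. In that low range lay 13 of the 19 T and NK cell genes, 5 of the 12 B cell genes and 1 of the 9 plasma cell genes.

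**Figure D2:**
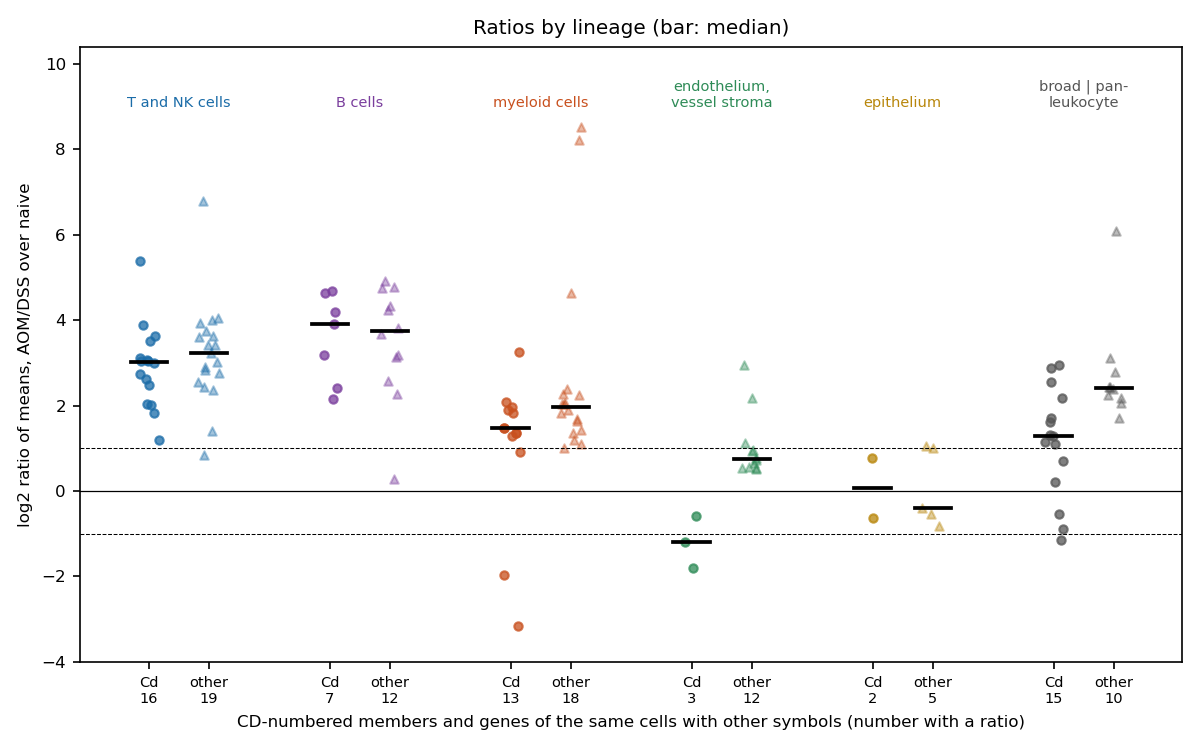
Each point is the log2 ratio of the authors' means, AOM/DSS over naive, for one gene, circles being CD-numbered members and triangles genes of the same cells with other symbols. Bars are medians, dashed lines mark 2-fold and the number with a ratio stands under each column. The medians of both kinds of T and B cell genes lie well above the upper dashed line, and the 3 vessel and stroma members lie below 0 while all 12 listed endothelial genes with other symbols lie above it.

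Promoters of receptor chain genes are printed because these genes stood higher together in AOM/DSS, and because Cd3g, Cd3d and Cd3e lie side by side on chromosome 9 within 40.1 kb (mm10, from 44969572 to 45009627). The 300 bases run from 250 before to 50 after the transcription start, are from RefSeq on build GRCm38.p6, and were held there for 39 of the 57 members. Capitals mark GAGGAA or its complement TTCCTC, a core recognised by ETS factors including PU.1, and CCCNNGGG, the core of the site of the B cell factor EBF, each searched on both strands. Cd3g lies at chr9:44980382-44980681 on the minus strand, Cd3d at chr9:44981536-44981835 on the plus strand, Cd3e at chr9:45009562-45009861 on the minus strand, Cd79a at chr7:24897247-24897546 on the plus strand and Cd22 at chr7:30878979-30879278 on the minus strand.
Cd3g: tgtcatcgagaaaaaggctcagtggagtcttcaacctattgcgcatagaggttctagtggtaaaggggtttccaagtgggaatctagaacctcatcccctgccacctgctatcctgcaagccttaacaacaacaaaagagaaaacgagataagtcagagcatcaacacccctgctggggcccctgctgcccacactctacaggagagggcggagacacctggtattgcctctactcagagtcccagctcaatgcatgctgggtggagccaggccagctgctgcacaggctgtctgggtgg
Cd3d: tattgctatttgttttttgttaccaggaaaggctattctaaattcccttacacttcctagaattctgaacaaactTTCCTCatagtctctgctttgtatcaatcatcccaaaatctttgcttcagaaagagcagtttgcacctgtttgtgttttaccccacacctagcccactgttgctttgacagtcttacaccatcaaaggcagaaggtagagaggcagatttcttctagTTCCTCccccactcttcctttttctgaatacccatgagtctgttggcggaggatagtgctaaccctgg
Cd3e: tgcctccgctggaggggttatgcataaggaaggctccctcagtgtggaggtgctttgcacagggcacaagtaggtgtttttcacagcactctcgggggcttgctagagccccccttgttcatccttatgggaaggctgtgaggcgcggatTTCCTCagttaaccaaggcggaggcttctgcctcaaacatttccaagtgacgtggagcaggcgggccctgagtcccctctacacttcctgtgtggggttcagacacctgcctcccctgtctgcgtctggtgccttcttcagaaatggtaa
Cd79a: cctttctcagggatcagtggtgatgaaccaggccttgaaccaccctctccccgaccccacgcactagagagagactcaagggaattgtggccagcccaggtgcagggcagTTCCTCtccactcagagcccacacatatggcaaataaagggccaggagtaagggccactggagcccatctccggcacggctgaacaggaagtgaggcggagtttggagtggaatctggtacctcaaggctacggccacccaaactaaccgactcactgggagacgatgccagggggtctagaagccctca
Cd22: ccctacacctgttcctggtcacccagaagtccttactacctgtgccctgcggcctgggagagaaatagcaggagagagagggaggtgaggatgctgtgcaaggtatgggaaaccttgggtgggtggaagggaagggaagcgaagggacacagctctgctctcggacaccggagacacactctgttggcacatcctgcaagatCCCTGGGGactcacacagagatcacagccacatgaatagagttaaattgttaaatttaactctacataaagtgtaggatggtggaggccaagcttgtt

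The GAGGAA core occurred 2 times in the Cd3d window and 1 time each in those of Cd3e and Cd79a, and was not found in those of Cd3g and Cd22. It was present in the windows of 21 of the 39 members with a promoter and in 28.3% of all 32851 promoters. The CCCNNGGG core was present in 7 of the 39, Cd22 among them, and in 13.7% of all promoters. The octamer ATTTGCAT, also searched on both strands, was in none of the 39 and in 1.74% of all promoters. These are matches of letters, not binding sites. A window without a match, such as that of Cd79a for CCCNNGGG, may still hold a site that differs from these letters.

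Myeloid members were higher by smaller ratios, with exceptions. Of 13 listed members, 10 were at least 2-fold higher, 1 lay between and 2 were at least 2-fold lower, with a median log2 ratio of 1.47. Over all listed genes with a ratio the shares were 27.3% higher and 17.4% lower. Cd14, the co-receptor for bacterial lipopolysaccharide on monocytes and macrophages, had 105 in AOM/DSS and 43.3 in naive tissue, 2.43-fold. Cd177, known as a neutrophil surface protein, had 130 in AOM/DSS and 46.7 in naive tissue, 2.78-fold. A neutrophil gene from the list with other symbols had a far wider ratio. Csf3r, the receptor of the neutrophil growth factor, had 22.5 in AOM/DSS and 0.904 in naive tissue, 24.8-fold. On the same list, S100a8 was 300-fold higher (451 in AOM/DSS, 1.50 in naive tissue) and S100a9 368-fold (397 in AOM/DSS, 1.08 in naive tissue). The lysosomal macrophage gene Cd68 was 1.90-fold higher, with 33.9 in AOM/DSS and 17.9 in naive tissue.

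Costimulatory ligands of antigen-presenting cells were higher together. Cd86 stood at 6.97 in AOM/DSS and 1.97 in naive tissue, 3.54-fold, and Cd80 at 2.50 in AOM/DSS and 0.904 in naive tissue, 2.77-fold, or 0.88 on the log2 scale with 1 added to both means. Cd83, a marker of mature dendritic cells, had 20.6 in AOM/DSS and 8.01 in naive tissue. Other leukocyte receptor genes were higher too. Cd300a, which encodes an inhibitory receptor, was 4.24-fold higher (12.1 in AOM/DSS, 2.85 in naive tissue) and Cd300c2, which encodes a relative of it from the same stretch of chromosome 11, was 3.92-fold higher (9.96 in AOM/DSS, 2.54 in naive tissue). Cd33, a sialic acid-binding receptor, had 9.76 in AOM/DSS and 3.81 in naive tissue, and Cd84, a SLAM family receptor of several leukocytes, had 15.5 in AOM/DSS and 4.14 in naive tissue. Cd101, an inhibitory receptor of myeloid and T cells, was 9.47-fold higher, with 3.54 in AOM/DSS and 0.374 in naive tissue.

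The 2 members lower in AOM/DSS are relatives of the C-type lectin receptor DC-SIGN. Cd209g had 1.29 in AOM/DSS and 5.09 in naive tissue, 3.94-fold lower, and Cd209b, a receptor of certain tissue macrophages, had 0.144 in AOM/DSS and 1.30 in naive tissue, 9.03-fold lower. The log2 ratio of Cd209b was −3.17, or −1.01 with 1 added to both means. The other annotated Cd209 genes, Cd209a and Cd209c to Cd209f, were not listed. In all, 14 of the 27 annotated myeloid members were not listed, including Cd200r1 to Cd200r4, Cd207 and Cd5l. Of 23 myeloid genes with other symbols 18 were listed, all higher, with a median log2 ratio of 1.96. At least 2-fold higher were 17 of the 18 (94.4%), against 27.3% of all listed genes with a ratio. Adgre1, Ccr2, Mrc1, Mpo and Siglech were not listed.

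Members of vessels and their stroma were lower. Cd36, a fatty acid and thrombospondin receptor of capillary endothelium, fat cells and macrophages, had 4.22 in AOM/DSS and 14.6 in naive tissue, 3.47-fold lower. Cd248 (endosialin), expressed by pericytes and fibroblasts, had 16.4 in AOM/DSS and 37.9 in naive tissue, 2.31-fold lower. Cd34, a sialomucin of endothelium, stromal cells and blood progenitors, had 39.5 in AOM/DSS and 59.1 in naive tissue, 1.50-fold lower. Endothelial genes with other symbols stood the other way. Of 20 written down, 12 were listed and all 12 were higher, with a median log2 ratio of 0.75, against 0.38 for all listed genes. At least 2-fold higher were 3 of the 12 (25%), near the 27.3% of all listed genes with a ratio. Pecam1, the gene of CD31, had 94.5 in AOM/DSS and 49.2 in naive tissue, and Cdh5, which encodes VE-cadherin, 17.8 in AOM/DSS and 9.20 in naive tissue. Selp and Vcam1, which encode adhesion molecules for leukocytes, were highest of the 12, at 7.69-fold and 4.56-fold. Icam2 and Pecam1, also adhesion molecule genes, were 1.57-fold and 1.92-fold higher, and Sele was not listed.

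Smooth muscle genes stood lower as well. All 8 written down were listed and at least 2-fold lower, against 11.5% of all listed genes reaching a mean of 10. Log2 ratios of the 8 ran from −1.63 to −1.07. Des, for example, had 810 in AOM/DSS and 2504 in naive tissue. Of 9 fibroblast genes 3 were listed, of which Col1a1 (809 in AOM/DSS, 484 in naive tissue) and Col1a2 were higher and Dpt (92.1 in AOM/DSS, 141 in naive tissue) lower. The part of the muscle coat or of other stroma in the lower means of Cd34, Cd36 and Cd248 was not tested.

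The epithelial members stood in opposite directions. Cd24a, a mucin-like surface protein of crypt epithelium and of developing B cells, had 251 in AOM/DSS and 146 in naive tissue, 1.72-fold higher. Cd9, a tetraspanin abundant in epithelium and also found on many other cells, had 304 in AOM/DSS and 472 in naive tissue, 1.55-fold lower. Cd151, the third gene placed here, was not listed. Of 14 epithelial genes with other symbols 5 were listed, 3 lower and 2 higher, the keratin gene Krt19 at 1679 in AOM/DSS and 2947 in naive tissue and Muc2, which encodes the main goblet cell mucin, at 1058 in AOM/DSS and 529 in naive tissue. Transcripts that define colon epithelium were thus present in both groups.

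Among the 15 listed members placed as found on many cell types, 10 were at least 2-fold higher, 4 lay between and 1 was at least 2-fold lower. The shares were 66.7% higher and 6.67% lower, against 27.3% and 17.4% of all listed genes with a ratio. The median log2 ratio of the 15 was 1.28. Centred on the median of all listed genes, 6 of the 15 were at least 2-fold higher and 2 at least 2-fold lower. Leukocyte-wide genes were among those higher. Cd52, a small glycoprotein of lymphocytes and monocytes, had 189 in AOM/DSS and 32.4 in naive tissue, 5.84-fold. The leukocyte tetraspanin Cd53 had 28.2 in AOM/DSS and 6.23 in naive tissue, 4.53-fold, and Cd48, the ligand of CD2 and CD244, 8.75 in AOM/DSS and 2.88 in naive tissue, 3.04-fold. Cd69, an early activation antigen that also marks tissue-resident lymphocytes, was 7.70-fold higher, with 2.05 in AOM/DSS and 0.267 in naive tissue. All 10 pan-leukocyte genes with other symbols were listed and at least 2-fold higher, against 18.6% of all listed genes reaching a mean of 10. The median log2 ratio of the 10 was 2.40, with Ptprc (the gene of CD45) at 42.0 in AOM/DSS and 6.06 in naive tissue.

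Cd274, which encodes the checkpoint ligand PD-L1, had 20.7 in AOM/DSS and 2.82 in naive tissue, 7.32-fold. Pdcd1, the gene of PD-1, the receptor of PD-L1, had 2.00 in AOM/DSS and 0.166 in naive tissue, a naive mean shared by 2 other listed genes. The log2 ratio of Pdcd1 was 3.60, or 1.37 with 1 added to both means. Cd47, the signal that restrains phagocytosis, had 245 in AOM/DSS and 101 in naive tissue, 2.43-fold, and Cd276, a B7 family member, 9.83 in AOM/DSS and 4.60 in naive tissue, 2.14-fold. Adding 1 to both means took Cd276 to a log2 ratio of 0.95, just under 2-fold. Cd44, a hyaluronan receptor of leukocytes and of crypt base cells, had 129 in AOM/DSS and 39.2 in naive tissue, 3.27-fold. Cd1d1, which presents lipids to NKT cells, was 2.46-fold higher, with 8.52 in AOM/DSS and 3.46 in naive tissue. Cd38, an NAD-consuming ectoenzyme, stood at 93.0 in AOM/DSS and 56.9 in naive tissue, 1.64-fold. Cd164, a sialomucin, differed least of all members, with 126 in AOM/DSS and 110 in naive tissue, and turned to lower when ratios were centred on the median of all listed genes (log2 −0.17).

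Among genes for regulators of complement, 1 listed member was at least 2-fold lower, 1 lay between and 1 was at least 2-fold higher. Protection of cells from complement was not tested. Cd59a, which blocks assembly of the membrane attack complex, had 40.3 in AOM/DSS and 88.7 in naive tissue, 2.20-fold lower. Cd46, a cofactor for complement cleavage, had 4.97 in AOM/DSS and 9.29 in naive tissue, 1.87-fold lower. Cd59b, the neighbouring copy of Cd59a on chromosome 2, had 0.676 in AOM/DSS and 0.304 in naive tissue, 2.23-fold higher, or 0.36 on the log2 scale with 1 added to both means. How reads shared by these copies were counted is not given in the sources used here, so the opposite direction of Cd59b is uncertain. Cd55 and Cd55b, which encode further complement regulators, were not listed. Cd99l2, an adhesion molecule related to CD99, stood at 15.0 in AOM/DSS and 21.8 in naive tissue, 1.45-fold lower.

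**Figure D3:**
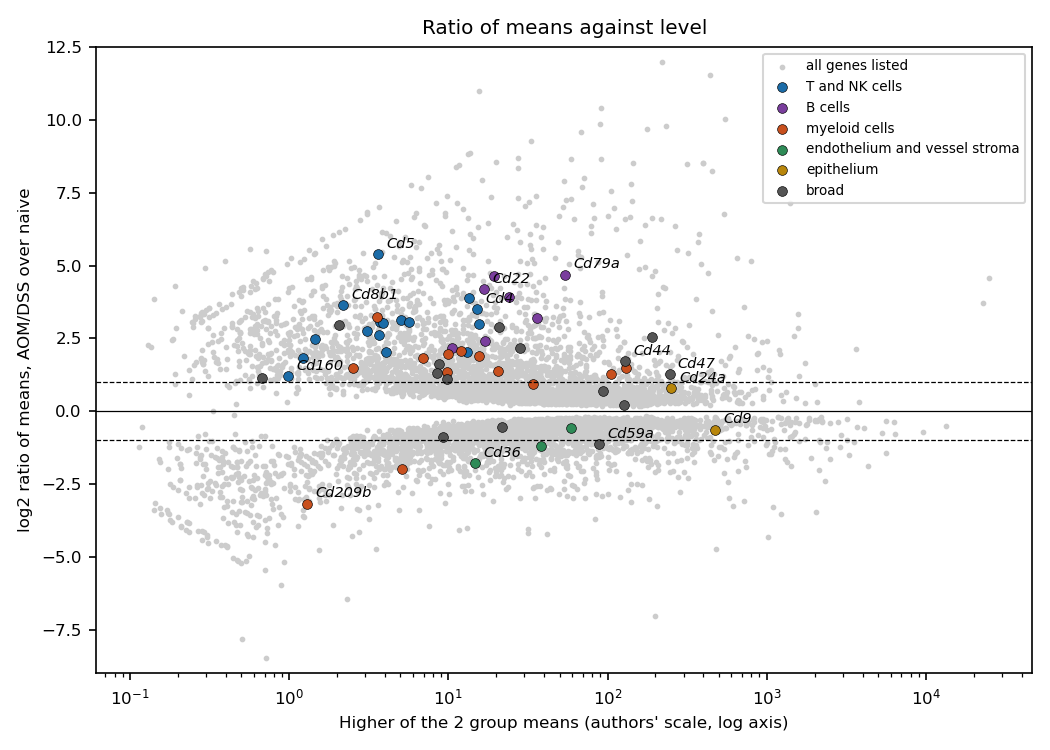
The log2 ratio of the authors' means, AOM/DSS over naive, is plotted against the higher of both means on a log axis, in grey for all listed genes with a ratio and in colour for the 56 members with one, dashed lines marking 2-fold. Wide ratios are common among grey points at low levels, T and NK cell members lie mostly below a mean of 10, and B cell members all lie at or above it. The list holds only genes with a p below 0.05.

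Linking each member to the next one along the chromosome within 500 kb gave 11 groups of members. All but the group of Cd59a and Cd59b and that of Cd4, Cd27 and Cd9 held members on one side only, in a set where 47 of 56 members were higher. On chromosome 1 the SLAM family genes Cd244a, Cd48 and Cd84 lie within 331.5 kb, all higher, with log2 ratios from 1.60 to 3.88, and Cd34 and Cd46 lie within 153.4 kb, both lower. Cd5 and Cd6 are 2 higher neighbours on chromosome 19, and Cd209b and Cd209g 2 lower ones on chromosome 8. On chromosome 6, Cd4 and Cd27 were higher and Cd9, in the same 630.1 kb, was lower. Protein-coding genes on the opposite strand overlap 7 members (Cd27, Cd37, Cd52, Cd72, Cd160, Cd244a and Cd247), and whether counting used strand is not given in the sources used here. Of these partners, Tead2, which overlaps Cd37, had 30.4 in AOM/DSS and 3.62 in naive tissue, 8.38-fold, beside 9.09-fold for Cd37. Whether both genes share reads was not tested. Ly9, a lymphocyte gene itself, overlaps Cd244a and was 4.39-fold higher, and Crybg2, which overlaps Cd52, stood at 11.7 in AOM/DSS and 16.2 in naive tissue.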

How the data were processed

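RNA from colon tissue of 7 AOM/DSS and 4 naive mice was sequenced as 3′ mRNA libraries. The submitters' processing notes name cutadapt, STAR, Partek and mm10. The authors normalized gene counts and compared groups by gene-specific analysis in Partek Flow. The deposited table gives least-squares means per group as a normalized signal, whose normalization is not given in the sources used here. Listed rows sum to 554058 (AOM/DSS) and 547024 (naive). The authors' p-value, FDR and fold columns hold their own comparison and were not used, except that the highest deposited p-value was checked to lie below 0.05.

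From the means, log2 ratios of AOM/DSS over naive were computed with no pseudocount. Means of 0.0001 (500 naive, 69 AOM/DSS) gave no ratio. A 2-fold ratio served as call, with no test, because neither values per mouse nor replicate errors were analysed and genes are not replicates. Every member is named but 1, which is not reported here singly, with full values mainly for those with a mean of at least 10. Lineages, lists and members were chosen with earlier results of these data known, and Cd300c and Cd300c2 were placed after the values had been seen. Of 7868 symbols, 7727 occur in GENCODE M21 (GRCm38, the build mm10), which gave gene positions. Ratio code was tested on simulated data. Alternatives were pseudocounts of 1 and 0.1, median-centring, level filters, 1.5-fold and 4-fold limits, putting Cd74 and Cd163 back, and members of 1 lineage only. Python 3.11.15, pandas 2.3.3, numpy 2.4.6 and matplotlib 3.10.9 were used.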

Additional observations from a re-analysis of the deposited data

How the results depend on the processing

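The count of members at least 2-fold higher was 43 and stayed between 35 and 46 with 1 or 0.1 added to both means, with median-centring, at 1.5-fold and with Cd74 and Cd163 put back. It was 21 among members with a higher mean of at least 10, 25 among those reaching a mean of 1 in each group and 27 at 4-fold, each of which keeps fewer genes or asks for more by construction. The count of members at least 2-fold lower was 5, and was 7 with median-centring and at 1.5-fold, 6 with Cd74 and Cd163 put back, 4 with a mean of 1 reached in each group, 3 with a higher mean of at least 10, and 1 at 4-fold. The median log2 ratio of the members kept its sign in all alternatives run, between 1.43 and 1.94. Centring on the median of all genes listed turned Cd164 to −0.17 and the median of both epithelial members to −0.30, against 0.21 and 0.07 without it. With 1 added to both means, 6 members lost a 2-fold difference. Centring took it from 8 (Cd14, Cd1d1, Cd33, Cd47, Cd59b, Cd83, Cd160 and Cd276) and gave it to 2 (Cd9 and Cd46, both lower). No paired analysis was possible because the columns carry no replicate numbers. Leaving out a mouse could not be run on group means, and depth cannot be judged from them, so ratios on naive means under 1, held by 19 members, are the least certain.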
